A study of Homo sapiens with 5 samples.

Results

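The genes described here encode the proteins of the mitochondrial ribosome. They were the 78 protein-coding genes of GENCODE v44 whose symbol is MRPL (large subunit) or MRPS (small subunit) followed by a number, with hyphenated readthrough genes left out, among 61220 genes to which the deposited transcripts could be matched. Reads were summed per gene, and transcripts were also kept apart so that isoforms could be followed.

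NCI-H1975 and HCC827 are established human lung adenocarcinoma cell lines, obtained from ATCC and grown separately. Poly(A) RNA from 1 preparation of each line was combined by mass in steps of 25%. Libraries are named with the NCI-H1975 share first: 100:0 is NCI-H1975 RNA alone, 75:25 the mixture with 25% HCC827, 50:50 the even one, 25:75 that with 75% HCC827, and 0:100 is HCC827 RNA alone. Synthetic spike-in RNAs called sequins are named in the labels for both lines, as mix A in NCI-H1975 and mix B in HCC827. Each mixture gave 1 library, amplified by PCR with a barcode and sequenced as cDNA on a PromethION nanopore instrument, and the design asks how measured levels follow the mixing ratio. No treatment was applied, and with 1 RNA preparation per line the spread between libraries does not cover differences between cultures.

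Mitochondria carry their own ribosomes, which translate the few messenger RNAs encoded by mitochondrial DNA into subunits of the oxidative phosphorylation complexes. All proteins of these ribosomes are encoded by nuclear genes, made in the cytosol and imported. Many descend from bacterial ribosomal proteins and keep a bacterial counterpart, while others were added to the ribosome later and are found only in mitochondria. The large subunit forms peptide bonds and holds the exit tunnel, and the small subunit binds messenger RNA and decodes it.

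The libraries held between 2932250 and 4058751 assigned reads. Several of their properties moved with the mixing ratio: the mean length of the assigned transcripts went from 2581 bases at 100:0 to 2180 at 0:100, and reads on transcripts of the mitochondrial genome went from 5.64 to 8.85% of the total. The library labelled 0:100 had 0 sequin reads of 3092629, although its label names mix B, whereas the 100:0 library had 5475. Keratins KRT7, KRT8, KRT18 and KRT19 and the epithelial genes EPCAM and CDH1 had reads in every library, while the lymphocyte and leukocyte genes CD3E and PTPRC, the fibroblast gene DCN and the liver gene ALB had 0 reads in all 5. COL1A1, a collagen gene of fibroblasts, fell from 532 to 19 reads. The part of these differences in the slopes was not tested, other than that of transcript length.

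All 78 genes passed the filter of at least 10 reads in at least 2 libraries, as did 13492 genes in all. Over the 5 libraries a mitochondrial ribosomal protein gene had between 326 and 3421 reads, and no single count was under 42. In mixture order they held 17647, 24626, 24029, 19701 and 20405 reads together, or 0.602, 0.607, 0.619, 0.640 and 0.660% of each library. Their share of reads thus rose slightly at each step toward HCC827.

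Each gene was described by the slope of its log2 level on the HCC827 fraction, which gives the change in log2 level that the fit spans between 0 and 100% HCC827. Slopes were tested with edgeR's quasi-likelihood test over all 13492 genes with TMM scaling, which sets the bulk of genes to no change. A gene is said to have risen (higher in HCC827 RNA) or fallen (higher in NCI-H1975 RNA) where the adjusted p was under 0.05. Of the 78 genes, 40 rose, 7 fell and 31 did not pass the test, with slopes of -0.44 to 0.42 among the last. Of all genes tested, 23.5% rose and 22.3% fell, or 45.8% in either direction. The median slope was 0.42 for the mitochondrial ribosomal protein genes and -0.035 for all genes, and 15 of the 40 that rose and 1 of the 7 that fell changed by at least 2-fold in the fit.

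The balance of directions depended on the scaling. With library totals in place of TMM the median of all genes moved to -0.44, and 21 mitochondrial ribosomal protein genes rose and 16 fell, against 13.4% and 37.6% of all genes. Cytosolic ribosomal protein genes, which are among the most abundant messages, went from 140916 counts-per-million (CPM) at 100:0 to 217847 CPM at 0:100.

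**Figure D1:**
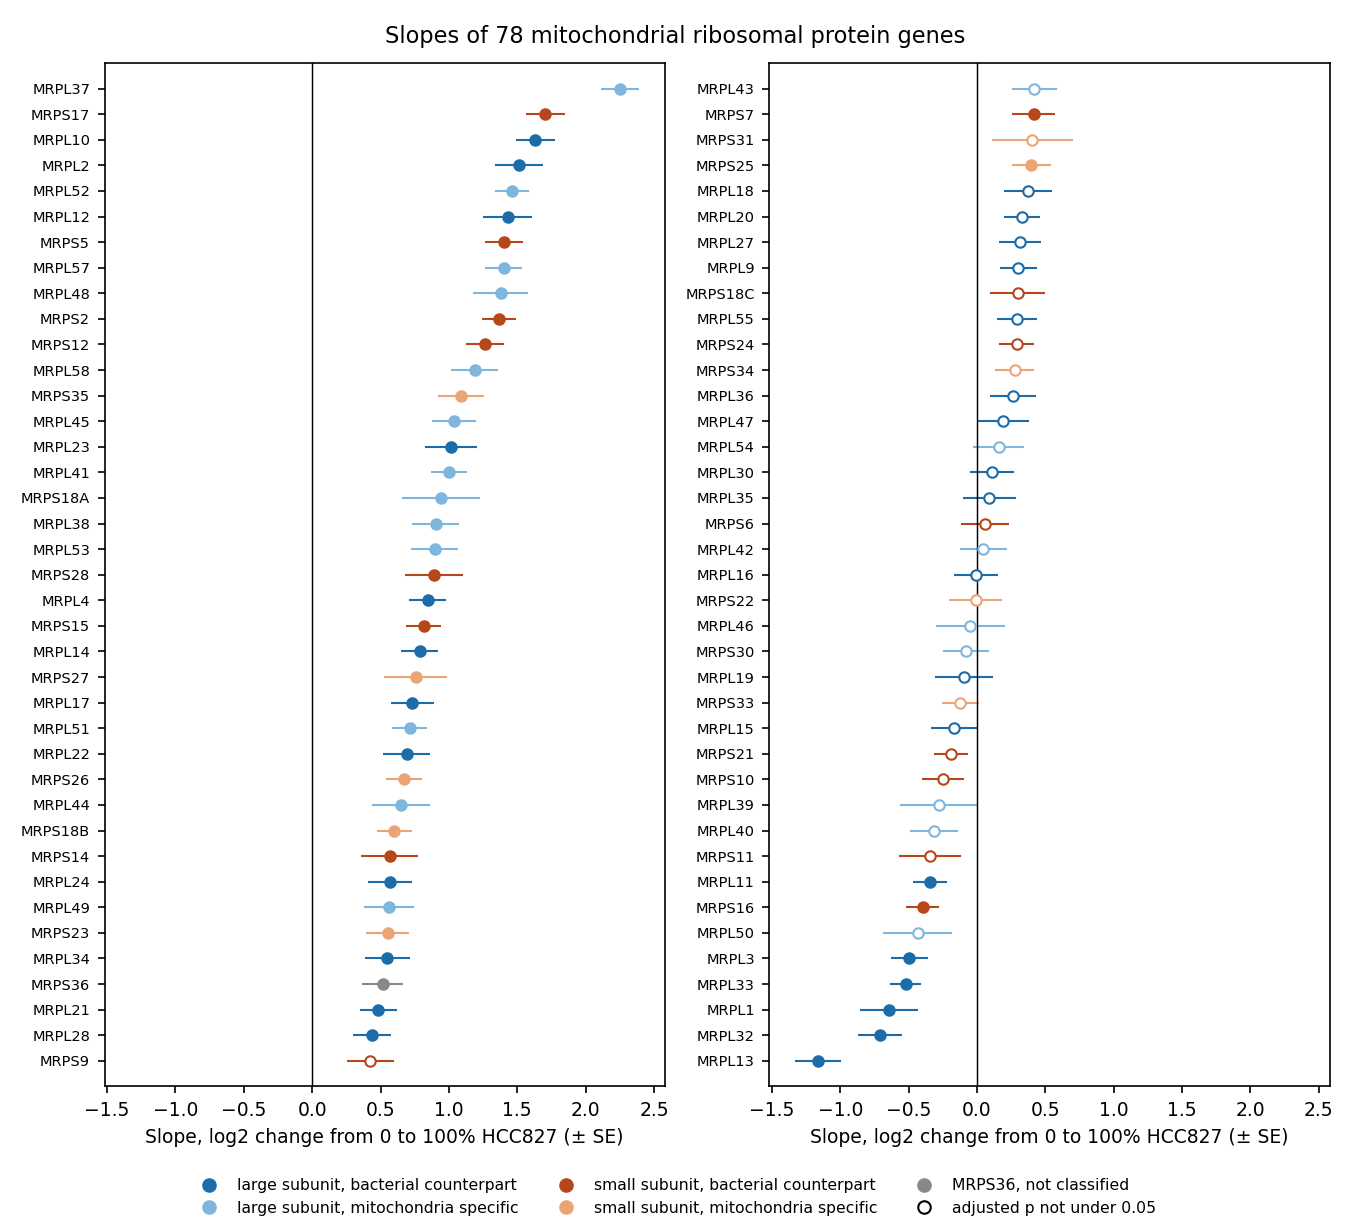
Slope of each of the 78 genes on the horizontal axis (log2 change from 0 to 100% HCC827, TMM scaling), with bars of 1 standard error, ordered from the top of the left panel to the bottom of the right. Filled points passed the adjusted p of 0.05 and colours give the subunit and whether the protein has a bacterial counterpart. Slopes ran from 2.25 for MRPL37 to -1.16 for MRPL13, and each of the 7 filled points left of 0 belongs to a protein with a bacterial counterpart.

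MRPL37, which encodes a mitochondria-specific protein of the large subunit, had the largest slope. From 100:0 to 0:100 it had 204, 470, 603, 587 and 855 reads, or 60.1, 109, 155, 205 and 318 TMM-scaled CPM. Each library with more HCC827 RNA was higher than the one before. The slope was 2.25 ± 0.14 (SE, adjusted p = 1.44e-06). The gene lies on the plus strand of chromosome 1 (chr1:54184041-54225464, GRCh38). SSBP3 and CYB5RL overlap it on the opposite strand and held 1096 and 153 reads, so reads may be shared.

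MRPS17 encodes a small-subunit protein that binds ribosomal RNA and has a bacterial counterpart. It stood at 94.0, 144, 203, 260 and 311 CPM in the same order, again with no step down, and its slope was 1.70 ± 0.14 (adjusted p = 4.05e-06). MRPL52, a mitochondria-specific protein of the large subunit, stood at 110, 147, 192, 259 and 295 CPM, with a slope of 1.46 ± 0.12 (adjusted p = 4.19e-06).

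Both main proteins of the stalk, the flexible arm of the large subunit that recruits translation factors, were among the 8 genes with the largest rise. MRPL10 stood at 42.4, 64.9, 83.1, 111 and 137 CPM, with a slope of 1.63 ± 0.14. MRPL12, which binds MRPL10 in the stalk, stood at 46.3, 78.8, 84.4, 97.2 and 148 CPM, with a slope of 1.43 ± 0.18. MRPL11, the protein at the stalk base, went the other way, from 167 CPM at 100:0 to 124 at 0:100, with a slope of -0.35 ± 0.13 (adjusted p = 0.039). Its 3 middle libraries lay between 147 and 152 CPM and were not in order.

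The other 3 genes of the 8 with the largest rise were MRPL2, MRPS5 and MRPL57. MRPL2, whose bacterial counterpart sits next to the site of peptide bond formation, stood at 28.0, 43.8, 49.0, 70.3 and 84.4 CPM (slope 1.51 ± 0.17). MRPS5, near the messenger RNA path of the small subunit, stood at 55.7, 79.7, 103, 121 and 155 CPM (slope 1.40 ± 0.14). MRPL57, a mitochondria-specific protein of the large subunit, stood at 77.2, 107, 142, 182 and 202 CPM (slope 1.40 ± 0.14). The levels of all 8 genes ran in order through the 5 libraries.

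Among the genes that fell, MRPL13 had the steepest slope. It encodes a large-subunit protein with a bacterial counterpart and had 306, 310, 229, 161 and 97 reads, or 90.1, 71.8, 58.8, 56.3 and 36.1 CPM. The level dropped at each step, with a slope of -1.16 ± 0.17 (adjusted p = 1.29e-04).

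MRPL33, a small large-subunit protein, had 739, 853, 669, 477 and 406 reads, or 218, 198, 172, 167 and 151 CPM. This too was a drop at each step, although a smaller one (slope -0.52 ± 0.12, adjusted p = 0.0026). MRPL32, which is cut to its mature form by the m-AAA protease of the inner membrane, stood at 79.2, 67.9, 68.5, 57.7 and 45.4 CPM (slope -0.71 ± 0.16). MRPL1, a protein of the mobile L1 stalk, stood at 43.3, 35.9, 27.7, 28.7 and 28.6 CPM (slope -0.64 ± 0.21), so that its decline lay in the NCI-H1975-rich libraries. MRPL3, whose bacterial counterpart reaches toward the catalytic centre, stood at 91.6, 90.6, 79.6, 74.1 and 65.8 CPM (slope -0.50 ± 0.14). MRPS16, the only small-subunit gene of the 7, stood at 179, 175, 156, 139 and 143 CPM (slope -0.40 ± 0.12).

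The 8 named rises kept their call when any 1 library was left out, as did the falls of MRPL13 and MRPL33. The other 5 falls did not. Without the 0:100 library the adjusted p was 0.062 for MRPL32 and 0.085 for MRPL3. MRPS16 lost its call without 100:0 (0.051) or 75:25 (0.051), MRPL1 without 100:0 (0.31), 75:25 (0.051) or 25:75 (0.056), and MRPL11 without 100:0 (0.16), 75:25 (0.050), 50:50 (0.056) or 0:100 (0.33). When the 2 NCI-H1975-rich libraries were compared with the 2 HCC827-rich libraries, 15 genes rose and 0 fell, against 9.32% and 7.97% of all genes. At an unadjusted p under 0.05 that comparison gave 30 rising and 5 falling genes, where 19.4% of all genes rose and 18.97% fell. With library totals in place of TMM, each of the 8 named rises and of the 7 falls kept its direction and its call. A group of 14 genes, all rising, was called in the same direction under each of 13 other settings: MRPL37, MRPS17, MRPL10, MRPL2, MRPL52, MRPS5, MRPL57, MRPL48, MRPS2, MRPS12, MRPL58, MRPL41, MRPL4 and MRPL14. They were 17.9% of the 78, and of all 13492 genes 7.73% rose under every setting, while 0 of the 78 and 5.48% of all genes fell under every setting.

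**Figure D2:**
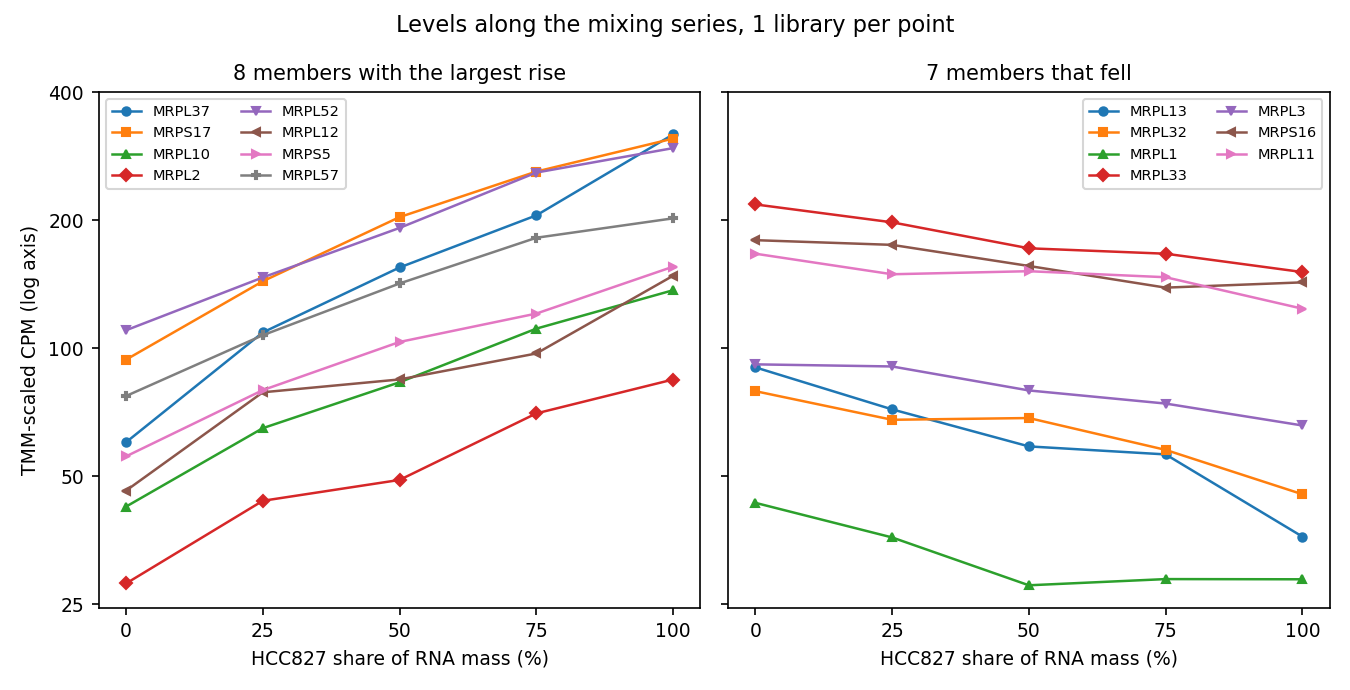
TMM-scaled CPM (log axis) against the HCC827 share of RNA mass, 1 library per point, for the 8 genes with the largest rise (left) and the 7 that fell (right). The 8 rising genes climb at every step, MRPL37 from 60.1 to 318 CPM, and of the falling genes MRPL13 drops furthest, from 90.1 to 36.1 CPM.

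The pure libraries were also set side by side, with no test because neither had a replicate. At 0:100, 16 of the 78 genes were at least 2-fold higher than at 100:0, where 16.2% of all genes were, and 1 gene, MRPL13, was at least 2-fold lower, where 18.4% of all genes were. The median log2 ratio was 0.39 for the 78 genes and -0.027 for all. With library totals, 7 were at least 2-fold higher and 3 at least 2-fold lower, against 9.54% and 29.4% of all genes. The level of 25 of the 78 genes (32.1%) ran in order through the 5 libraries, against 28.5% of all genes. For 45 of the 78 the 3 mixtures all lay between the pure libraries, against 47.0% of all genes. Of the 25, 24 were among the 47 that passed the slope test, and the other was MRPL9 (slope 0.30 ± 0.14, adjusted p = 0.084).

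The genes were next grouped by the structure of the ribosome. Of 51 genes of the large subunit, 25 rose and 6 fell, and of 26 genes of the small subunit, 14 rose and 1 fell. The median slope was 0.42 in both, and 23.5% of all genes rose and 22.3% fell. MRPS30 and MRPS18A carry small-subunit names but their proteins sit in the large subunit, and they were counted there. MRPS36 was left out of the classes because its product is now known as KGD4, a subunit of the oxoglutarate dehydrogenase complex. It rose from 48.3 to 70.3 CPM (slope 0.52 ± 0.15, adjusted p = 0.012).

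Grouping by origin gave different counts. Of 31 genes for mitochondria-specific proteins, 19 rose and 0 fell, against 23.5% and 22.3% of all genes, with a median slope of 0.60. At an unadjusted p under 0.05 the edgeR fit had 20 rising and 0 falling, against 26.7% and 26.1% of all genes. By DESeq2's Wald test 16 rose and 0 fell (19.1% and 16.4% of all genes), and by limma-voom 19 and 0 (23.5% and 22.0%). With library totals 10 rose and 4 fell (13.4% and 37.6%). At an unadjusted p in edgeR, 1 fell without 75:25, without 25:75 and without 0:100, where 23.9%, 24.9% and 19.4% of all genes fell. Of 46 genes whose proteins have a bacterial counterpart, 20 rose and 7 fell, with a median of 0.32. The difference between the classes was not tested. In all, 4 structural classes followed from both splits, and the large-subunit genes for mitochondria-specific proteins had the highest median, 0.71 (13 of 21 rose, 0 fell), ahead of the small-subunit mitochondria-specific class at 0.48 (6 of 10 rose, 0 fell), the small-subunit bacterial class at 0.42 (8 of 16 rose, 1 fell) and the large-subunit bacterial class at 0.31 (12 of 30 rose, 6 fell). With library totals the counts were 9 rising and 3 falling, 1 and 1, 5 and 4, and 6 and 8 in the same order. Without the 0:100 library, 7 large-subunit bacterial genes rose and 3 fell, and 16.9% of all genes rose and 13.6% fell. Without the 100:0 library 4 small-subunit mitochondria-specific genes rose, and 18.2% of all genes did.

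Summed over the class, the large-subunit mitochondria-specific genes had 1121, 1288, 1517, 1804 and 2085 TMM-scaled CPM from 100:0 to 0:100. The large-subunit genes with a bacterial counterpart had 2074, 2179, 2237, 2392 and 2562. Scaled by library totals, the first sum still went up at each step, from 1297 to 1813 CPM, while the second went down from 2401 to 2228 CPM. All 78 genes together had 5199, 5705, 6167, 6886 and 7587 TMM-scaled CPM, a log2 ratio of 0.55 between the pure libraries, and 6018, 6067, 6194, 6403 and 6598 CPM by library totals, a log2 ratio of 0.13.

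**Figure D3:**
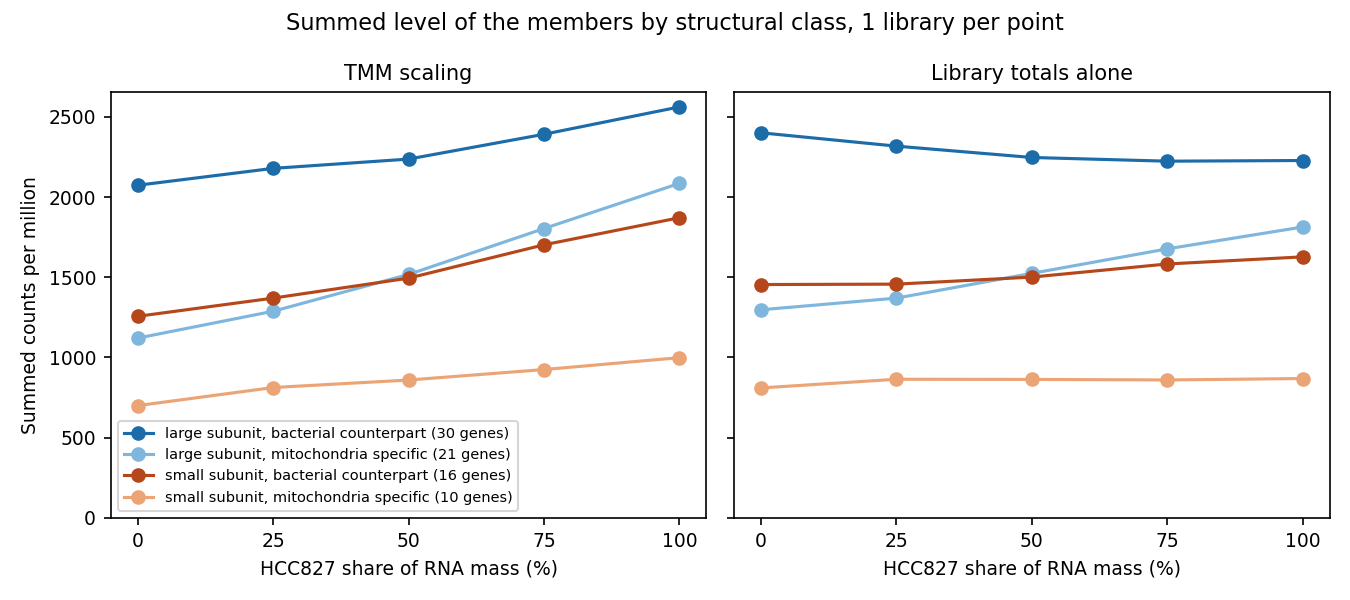
Summed CPM of the genes in 4 structural classes against the HCC827 share of RNA mass, 1 library per point, with TMM scaling on the left and library totals on the right (MRPS36 is in no class). The large-subunit mitochondria-specific class rises under both scalings, to 2085 and 1813 CPM, and the large-subunit bacterial class rises under the first and falls under the second, to 2562 and 2228 CPM.

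Functional regions held members that rose, fell or did not pass. Of all genes tested, 23.5% rose and 22.3% fell. At the exit tunnel, where the new peptide leaves the ribosome, 5 of 6 genes rose: MRPL45, which anchors the ribosome to the inner membrane (slope 1.04), MRPL23 (1.01), MRPL17 (0.73), MRPL22 (0.69) and MRPL24 (0.57). MRPL47 had a slope of 0.19 and did not pass. Without the 0:100 library, 2 of the 6 rose, and with library totals likewise 2, where 16.9% and 13.4% of all genes rose.

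In the central protuberance, which is among the parts of the large subunit that contact the small one, 3 of 6 genes rose. Of all genes tested, 23.5% rose and 22.3% fell. They were MRPL48 (slope 1.38), MRPL38 (0.90) and MRPL58 (1.19), the last of which belongs to the family of peptide release factors and became a structural protein of the ribosome. MRPL18 (0.37), MRPL46 (-0.049) and MRPL40 (-0.31) did not pass. Of 4 small-subunit genes grouped here for the messenger RNA path and decoding, MRPS5, MRPS2 (1.36) and MRPS12 (1.27) rose. MRPS12, whose bacterial counterpart governs decoding accuracy, stood at 64.2, 86.4, 94.2, 134 and 155 CPM. The fourth, MRPS24, had a slope of 0.29 and an adjusted p of 0.084. Of 5 genes around the catalytic centre, MRPL2 and MRPL4 (0.85) rose, MRPL3 fell, and MRPL16 (-0.0058) and MRPL27 (0.31) did not pass.

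MRPS18A, MRPS18B and MRPS18C encode relatives of a single bacterial protein, placed at different sites of the ribosome. MRPS18A and MRPS18B were counted above as mitochondria-specific because of the sites they occupy, although they share this ancestry. MRPS18B had 519, 824, 813, 603 and 662 reads and rose with a slope of 0.60 ± 0.13. MRPS18A had 51, 135, 108, 93 and 101 reads (slope 0.94 ± 0.29, adjusted p = 0.017). Its library at 100:0 was the low one, and the other 4 were not in order. The call was lost in 5 of 13 other settings: without 100:0 (adjusted p = 0.32), without 0:100 (0.065), with library totals (0.13), with the length trend removed (0.069) and with 2 libraries against 2 (0.23). MRPS18C had 142, 162, 156, 152 and 121 reads, and its slope of 0.30 ± 0.20 did not pass.

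Levels were compared between genes only per length, as transcripts-per-million (TPM). MRPL33 had the highest mean level, 419 TPM, followed by MRPL52 at 281, MRPL51 at 252 and MRPS24 at 230. MRPL50 had the lowest, 6.43 TPM, below MRPL19 at 10.7 and MRPS23 at 13.4, so that the highest and the lowest were 65.2-fold apart although most ribosomal proteins occur as single copies in the assembled particle. The 3 genes with the lowest levels had long transcripts on average, from 3336 bases for MRPL50 to 7234 for MRPL19.

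The order at the top differed between the lines. MRPL33 stood at 619, 482, 384, 340 and 272 TPM and MRPL52 at 200, 249, 286, 330 and 338 TPM from 100:0 to 0:100, so that MRPL52 passed MRPL33 in the 0:100 library only. MRPL51 lay between 233 and 280 TPM and MRPS24 between 207 and 281 TPM, without an order along the series. The median over the 78 genes was 61.2 TPM at 100:0 and 60.9 at 0:100.

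Reads of MRPS24 are uncertain, because the readthrough gene URGCP-MRPS24 shares its exons and was assigned 2007 reads beside 2440 for MRPS24. The strand setting of the counting was not given in the sources used here, so genes that overlap on the opposite strand may also share reads. This touches MRPL37, with 1096 reads on SSBP3 beside its own 2719, and MRPS18B, with 1180 on PPP1R10 beside 3421. It also touches MRPL20, with 1020 on MRPL20-AS1 beside 1785, MRPS14, with 2001 on CACYBP beside 696, and MRPS18A, with 956 on RSPH9 beside 488. Further cases were MRPS22, with 2208 on COPB2 beside 745, and MRPL49, with 958 on SYVN1 beside 856. On the same strand, BABAM2 held 1033 reads beside 3144 for MRPL33, and NIPSNAP2 held 1407 beside 3311 for MRPS17. The 81 pseudogenes of this family took 84 reads in all.

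Transcript length moved with the libraries and was set beside the result. The 78 genes had a median transcript length of 1280 bases, weighted by reads, against 2850 for all genes tested. Across the 78 genes slope and length had a Spearman correlation of -0.13, and across all 13492 genes of -0.19, as descriptions over genes that share the same 5 libraries. When the trend of level on length was removed in each library, 30 of the 78 genes rose and 9 fell, against 23.3% and 21.1% of all genes, and their median slope was 0.26. The large-subunit mitochondria-specific class then had 10 rising and 1 falling, with a median of 0.48.

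The files held 496 transcripts of the 78 genes, of which 247 passed the read filter. In the same slope test with transcripts as features, 69 rose and 12 fell, against 17.5% and 16.1% of all 31758 transcripts tested. No gene had both a rising and a falling transcript, so 0 of the 41 genes with a called transcript showed opposed isoforms. Likewise 0 transcripts were called against the direction of a called gene. Shares over all genes are not given beside these counts, and only 12 transcripts fell. For MRPL37, transcripts MRPL37-201 (79, 155, 192, 208 and 312 reads) and MRPL37-202 (123, 301, 400, 369 and 529 reads) rose with slopes of 2.21 ± 0.17 and 2.19 ± 0.18. Leaving out the 100:0 library left 49 called transcripts of these genes, and leaving out 0:100 left 48. Over all transcripts tested, calls went from 33.6% to 21.8% and 20.1%.

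Reads on transcripts annotated as protein coding made up 81.4% of the reads of the 78 genes at 100:0 (95% Wilson interval 80.8 to 82.0), then 82.1, 82.5 and 84.3%, and 84.1% at 0:100 (83.6 to 84.6). Transcripts without a defined coding sequence went from 8.86 to 7.34%, and those annotated for nonsense-mediated decay from 4.64 to 3.69%. Transcripts with a retained intron took 5.10 and 4.86% in the pure libraries, with overlapping intervals. Over all protein-coding genes the protein-coding share was 83.3% at 100:0 and 82.8% at 0:100. In those genes transcripts without a defined coding sequence went from 3.85 to 4.19%, and those annotated for nonsense-mediated decay from 4.88 to 4.58%. The shares pool reads over genes, so they can also move with the levels of single genes, and this part was not separated.

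Isoform usage, the share of each transcript within its gene, was tested in 58 of the 78 genes with diffSpliceDGE of edgeR. MRPL43 passed, with an adjusted p of 0.0016, and was the only one of the 58 to do so, against 0.402% of all 7455 genes tested. MRPL21, MRPL52 and MRPL2 had an unadjusted p under 0.05 and adjusted values near 1.

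MRPL43 encodes a mitochondria-specific protein of the large subunit and lies on the minus strand of chromosome 10 (chr10:100969458-100987515). Its reads summed over isoforms were 259, 315, 281, 286 and 251, with a slope of 0.42 ± 0.16 that did not pass (adjusted p = 0.053). The gene was called without the 100:0 library (adjusted p = 0.017) and with the size factors of DESeq2 (0.046).

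Beneath that total, isoforms with different 3′ ends diverged. MRPL43-206, which ends at the proximal site (chr10:100986274-100987483), had 124, 138, 124, 87 and 84 reads, and its slope of -0.27 ± 0.20 did not pass. MRPL43-201, which ends at the distal site (chr10:100981376-100987494), had 4, 13, 23, 41 and 37 reads and rose with a slope of 3.19 ± 0.48 (adjusted p = 5.25e-05, edgeR slope over transcripts). MRPL43-210, without a defined coding sequence and with the same distal end, had 1, 6, 14, 20 and 20 reads (slope 3.38 ± 0.64), and MRPL43-209 had 8, 7, 14, 14 and 19 (slope 1.92 ± 0.56).

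The annotated coding sequences of MRPL43-206 and MRPL43-201 end differently. MRPL43-206 and MRPL43-201 share their first 466 coding bases and then part, so that MRPL43-206 has 480 coding bases including the stop codon and MRPL43-201 has 609. The coding ends in the GENCODE v44 transcripts are shown 5′ to 3′, with the last 30 shared bases in lower case and the bases of each isoform alone, up to its stop codon, in capitals.
MRPL43-206: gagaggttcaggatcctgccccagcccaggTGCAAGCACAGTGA
MRPL43-201: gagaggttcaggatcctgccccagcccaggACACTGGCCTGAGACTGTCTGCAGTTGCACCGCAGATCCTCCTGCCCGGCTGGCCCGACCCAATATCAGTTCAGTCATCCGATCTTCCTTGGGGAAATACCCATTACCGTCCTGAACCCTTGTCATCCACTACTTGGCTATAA
MRPL43-206 adds 14 bases of its own and MRPL43-201 adds 143, which would encode 159 and 202 amino acids; no protein was measured. At 0:100, 37 of the 89 reads on distal ends were MRPL43-201, while 20 were MRPL43-210 and 19 were MRPL43-209.

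Transcripts were then summed by their end, a grouping chosen after the values were seen and therefore not tested. Distal ends took 14 of 259 reads at 100:0, or 5.41% (95% Wilson interval 3.25 to 8.87). They took 12.1% at 75:25, 22.1% at 50:50 and 34.6% at 25:75. At 0:100 they took 89 of 251 reads, or 35.5% (29.8 to 41.6). In TMM-scaled CPM the distal ends went from 4.12 to 33.1, while the proximal end was at 72.2 and 60.2 in the pure libraries. The usage result rested on the libraries with most NCI-H1975 RNA: the adjusted p was 0.26 without 100:0 and 0.076 without 75:25, and between 0.0031 and 0.017 without any other library. Where every library had to hold 10 reads, MRPL43-201 was left out and no call remained. SEMA4G and TWNK overlap the gene on the opposite strand and held 36 and 400 reads.

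**Figure D4:**
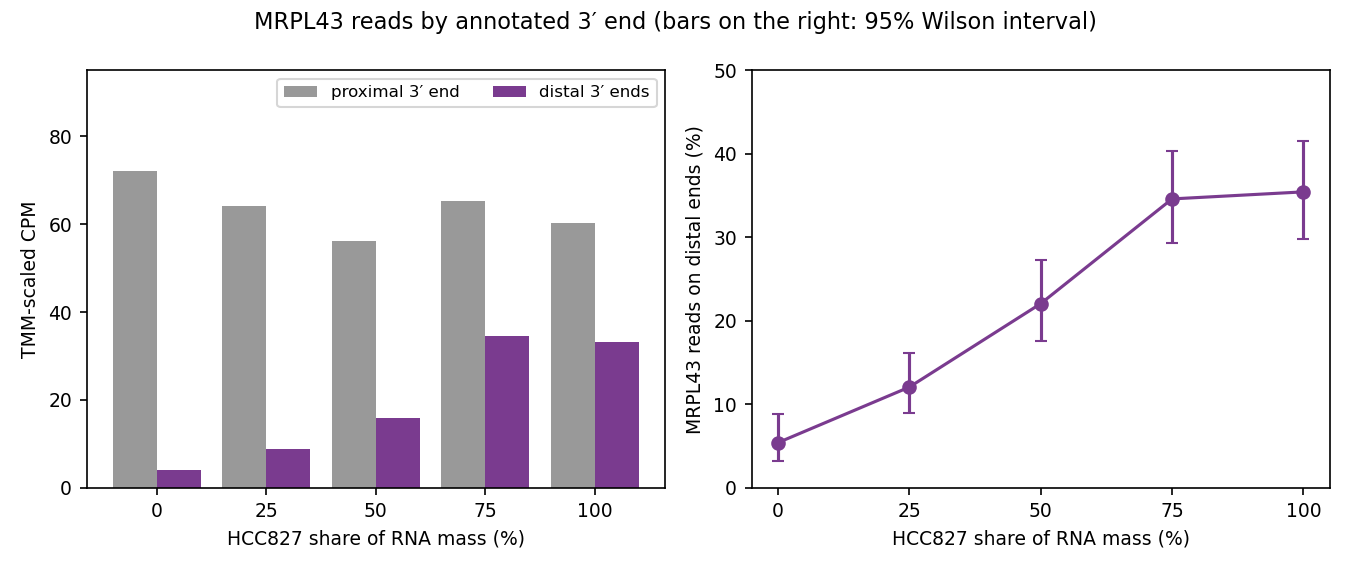
Left, TMM-scaled CPM of MRPL43 transcripts ending at the proximal site and at distal sites against the HCC827 share of RNA mass. Right, the share of MRPL43 reads on distal ends with 95% Wilson intervals (counting error only); it goes from 5.41% at 0% HCC827 to 35.5% at 100%, and the intervals at the 2 ends do not overlap.

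Promoters of the 78 genes were compared with all promoters for short sequence motifs. RefSeq windows (GRCh38.p14) from 250 bases before to 50 after the transcription start were found for 69 of the 78 genes, 85 windows in all. Both strands were searched for CCGGAAG, a core recognised by ETS family factors, AAGATGGCG, a core of the YY1 motif, and the palindrome of NRF1, a factor known for nuclear genes of mitochondrial proteins. CCGGAAG and AAGATGGCG can overlap by the letters AAG, which happened in 0 windows of the 78 genes. CCGGAAG was in 38.8% of the windows and in 10.3% of all 35116 windows. AAGATGGCG was in 15.3% against 1.75%, and the NRF1 palindrome in 1.18% against 1.24%.

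By gene, 30 of 69 (43.5%) had CCGGAAG, against 23.4% of the tested protein-coding genes with a window, and 13 of 69 (18.8%) had AAGATGGCG, against 4.95%. By direction, CCGGAAG was found for 11 of 34 rising and 3 of 6 falling genes, and AAGATGGCG for 5 of 34 and 1 of 6, a difference that was not tested. The 90 bases before the RefSeq start are shown for 2 genes that rose and 2 that fell, 5′ to 3′ on the strand of the gene, with motif letters in capitals.
MRPL52: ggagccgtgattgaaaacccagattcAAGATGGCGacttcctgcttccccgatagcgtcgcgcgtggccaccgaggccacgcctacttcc
MRPL12: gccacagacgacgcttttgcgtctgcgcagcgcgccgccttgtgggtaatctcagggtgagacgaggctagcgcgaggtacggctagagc
MRPL3: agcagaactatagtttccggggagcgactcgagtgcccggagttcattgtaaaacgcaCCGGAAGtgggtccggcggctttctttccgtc
MRPL33: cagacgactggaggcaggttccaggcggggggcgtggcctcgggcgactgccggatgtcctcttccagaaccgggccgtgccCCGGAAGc
They lie at chr14:22829797-22829886 (plus strand), chr17:81703277-81703366 (plus), chr3:131502972-131503061 (minus) and chr2:27771629-27771718 (plus). The rising MRPL52 carries AAGATGGCG in this stretch, the falling MRPL3 and MRPL33 carry CCGGAAG, and MRPL12 carries none of the 3 sequences there. Over the whole windows, MRPL52 also has CCGGAAG, as does the rising MRPS12, and the falling MRPL32 has AAGATGGCG. A match is a stretch of letters and not a measured binding site.

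The 78 genes lie on 21 chromosomes, and their slopes were set beside those of the other tested genes within 1 Mb. Across the 78, the Spearman correlation between a gene's slope and the median slope of its neighbours was 0.59. This is a description, since windows can share genes and all points share the 5 libraries. No value over all tested genes is given beside it, so it does not mark these genes out from others. For the neighbour counts below, 23.5% of all genes rose and 22.3% fell. MRPL37 had 21 tested neighbours, of which 17 rose and 0 fell, with a median of 1.33. MRPL12 had 54, of which 37 rose and 1 fell (median 0.95), and MRPS12 on chromosome 19 had 40, of which 28 rose and 1 fell (median 1.19).

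MRPL13, the gene with the steepest fall, had 6 tested neighbours with a median of -0.76, and MRPL32 had 12 with a median of -0.83, of which 5 fell. Other genes moved away from their neighbours. MRPS5 rose with a slope of 1.40 beside 10 neighbours with a median of -0.26, and MRPL33 fell beside 35 neighbours with a median of 0.019. MRPL10 and MRPL2 rose by more than 1.5 on the log2 scale beside neighbour medians of 0.37 and 0.24. DNA copy number was not measured here.

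**Figure D5:**
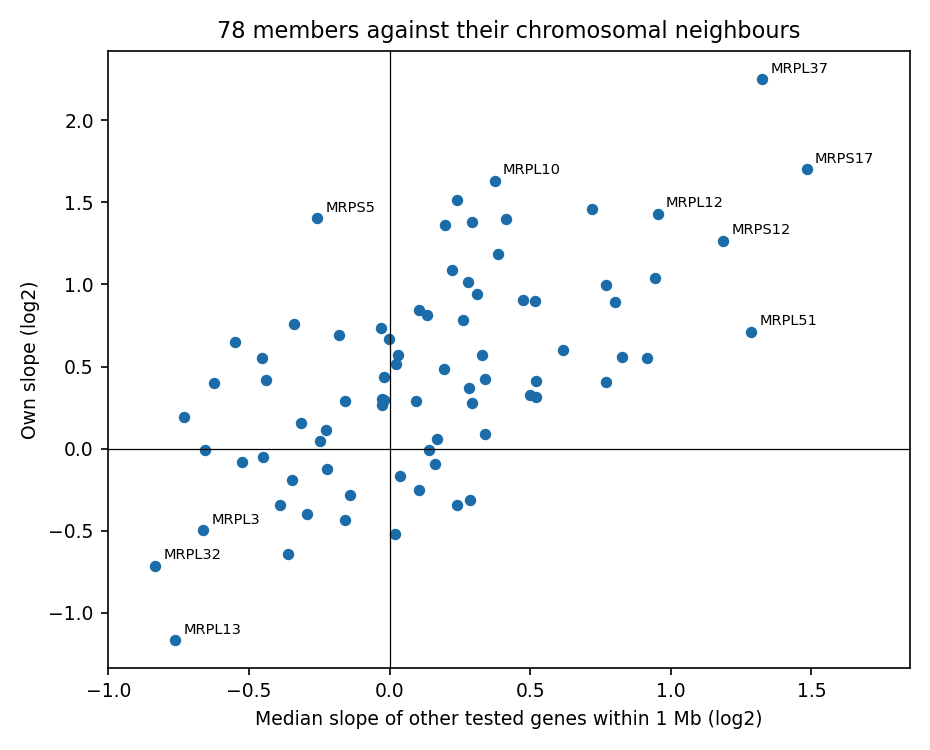
Slope of each of the 78 genes against the median slope of the other tested genes within 1 Mb (both log2 change from 0 to 100% HCC827). MRPL37, MRPS17, MRPL12 and MRPS12 lie at the upper right and MRPL13 and MRPL32 at the lower left, while MRPS5 lies at 1.40 above a neighbour median of -0.26.

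MRPS17 (chr7:55951877-55956500) was the only one of the 78 within 2 Mb of EGFR, the receptor kinase gene that carries activating mutations in both lines, and begins 0.74 Mb from its end. Its 12 tested neighbours had a median slope of 1.48, and 9 rose and 0 fell. Genes of this stretch, named after their values were seen, show how slopes ran along it. EGFR had a slope of 2.96, SEC61G before it 3.44, and LANCL2 and VOPP1 after it 3.28 and 3.13. Closer to MRPS17, NIPSNAP2 had 1.46, CCT6A 1.30, SUMF2 1.57, CHCHD2 1.77, ZNF713 1.22 and PHKG1 1.51. PSPH, between NIPSNAP2 and CCT6A, had 0.29 and did not pass. The pseudogene FKBP9P1, between VOPP1 and MRPS17, had -1.44, with 4 to 23 reads per library, and did not pass either (adjusted p = 0.064).

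Many mitochondrial ribosomal protein genes start back to back with another gene. A protein-coding gene on the opposite strand started within 1000 bases for 27 of the 78 (34.6%), against 18.4% of 11963 tested protein-coding genes. These made 26 distinct pairs with a tested partner. In 8 pairs, which hold 7 of the 78 genes since MRPL32 has 2 partners, both genes passed the slope test, and in 8 of 8 they moved the same way. Of all 978 pairs of tested genes arranged in this way both passed in 22.6%, and 83.3% of those moved the same way. Rising pairs were MRPL52 with SLC7A7, MRPS12 with SARS2, MRPL51 with NCAPD2, MRPL14 with TMEM63B and MRPL49 with FAU, and falling pairs were MRPL11 with PELI3 and MRPL32 with PSMA2 and with an unnamed gene, ENSG00000256646. NCAPD2, TMEM63B and PELI3 also overlap their partners on the opposite strand, with 1323, 337 and 282 reads, so reads may be shared between those genes. In 6 pairs the ribosomal protein gene alone passed, and no share over all 978 pairs is given beside this. Examples were MRPL10 (1.63) beside LRRC46 (-1.40, adjusted p = 0.17) and MRPL13 (-1.16) beside MTBP (-0.34, adjusted p = 0.73). MRPL46 and MRPS11, whose starts are 63 bases apart, had slopes of -0.049 and -0.35, and neither passed.

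Proteins of the mitochondrial ribosome also come from genes with other names. Of 5 such genes, 3 rose and 0 fell, against 23.5% and 22.3% of all genes, with a median slope of 0.51. The 3 were DAP3, a small-subunit GTP-binding protein, at 0.51 ± 0.14, PTCD3 at 0.54 ± 0.20 and AURKAIP1 at 0.51 ± 0.13. CHCHD1 had a slope of -0.45 (adjusted p = 0.050, not passed) and GADD45GIP1 of 0.038. With library totals 0 of the 5 rose and 2 fell, against 13.4% and 37.6% of all genes. Without the 0:100 library 1 rose, against 16.9%.

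Factors that assemble the ribosome or modify its RNA gave 9 rising and 4 falling of 25 (36% and 16%), with a median of 0.32. Of all genes tested, 23.5% rose and 22.3% fell. NSUN4, a methyltransferase of the ribosomal RNA, stood at 14.4, 25.7, 32.8, 44.7 and 59.9 CPM (slope 1.88 ± 0.21), and RPUSD4, a pseudouridine synthase, at 18.0, 34.7, 43.9, 69.2 and 61.4 CPM (slope 1.70 ± 0.27). MTERF3, a regulator of mitochondrial transcription and ribosome assembly, stood at 12.7, 9.73, 9.50, 7.34 and 2.60 CPM (slope -1.59 ± 0.45). GTPBP10, an assembly GTPase, had a slope of -0.79 ± 0.29. Without the 0:100 library 7 rose and 0 fell (edgeR), against 16.9% and 13.6% of all genes. The counts were the same at an unadjusted p under 0.05, against 21.7% and 19.4%. With library totals 5 rose and 7 fell, against 13.4% and 37.6%.

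Of 16 genes for mitochondrial translation and messenger RNA handling, 3 rose (18.8%) and 1 fell (6.25%), with a median of -0.072. Of all genes tested, 23.5% rose and 22.3% fell. OXA1L, which inserts newly made proteins into the inner membrane, stood at 84.0, 123, 151, 214 and 258 CPM (slope 1.60 ± 0.13). MRRF, the ribosome recycling factor, and TUFM, the elongation factor, had slopes of 0.63 and 0.51. SLIRP, which stabilises mitochondrial messenger RNA together with LRPPRC, stood at 468, 375, 360, 351 and 271 CPM (slope -0.66 ± 0.13). LRPPRC had a slope of -0.26 and did not pass. With library totals 1 of the 16 rose and 8 fell, against 13.4% and 37.6% of all genes. Without the 0:100 library 1 rose and 1 fell, against 16.9% and 13.6%.

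The RNAs that these ribosomes translate rose as well: of 13 messenger RNAs of the mitochondrial genome, 13 rose and 0 fell, with a median slope of 0.80. Of all genes tested, 23.5% rose and 22.3% fell. MT-ND3 stood at 987, 1668, 2372, 2757 and 3534 CPM (slope 1.75 ± 0.15) and MT-ND4L at 134, 227, 260, 300 and 456 (slope 1.56 ± 0.16), both subunits of complex I. With library totals 8 of the 13 rose and 0 fell, against 13.4% and 37.6% of all genes. Of 6 genes that transcribe or unwind mitochondrial DNA, 0 rose and 2 fell (33.3%, against 22.3% of all genes). The 2 were MTERF1 (-1.13 ± 0.38) and TFAM (-0.65 ± 0.18), the main packaging protein of mitochondrial DNA. Without the 0:100 library 0 of these 6 fell (edgeR), and 2 did at an unadjusted p under 0.05, where 13.6% and 19.4% of all genes fell.

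For comparison, 73 of 84 tested genes of the cytosolic ribosome rose and 3 fell, with a median slope of 0.99, and 37 of 80 nuclear genes of oxidative phosphorylation subunits rose and 11 fell, with a median of 0.29. The median of 0.42 of the mitochondrial ribosomal protein genes lay between them. Of all genes tested, 23.5% rose and 22.3% fell. Whether these lists differ was not tested. With library totals the 3 medians were 0.58, -0.12 and 0.015.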

How the data were processed

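The authors deposited, for each of 5 libraries, an estimated count of reads and a length per transcript. All values but 2 were whole as read from the deposited tables, and those 2 were rounded. Per the submitters' processing notes minimap2 2.24, Salmon 1.9.0 and GRCh38 were used, without role or order, and the annotation release is not given in the sources used here. Of 227751 human transcripts, 224076 matched GENCODE v44, and 161 identifiers listed again were summed. The members, lists and tests were chosen with earlier results of these data known.

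Slopes on the HCC827 fraction were fitted with edgeR 4.0.16 (R 4.3.3; limma 3.58.1) by quasi-likelihood over all features with at least 10 reads in at least 2 libraries, with 3 residual degrees of freedom, TMM scaling of all assigned reads and Benjamini-Hochberg adjustment over all features (threshold 0.05). Standard errors were taken as the size of the slope over the root of its F value. A mixture is linear in level, so the log slope understates genes nearly absent from 1 line. Isoform usage used diffSpliceDGE with Simes p-values. What edgeR names the biological coefficient of variation, the root of the common dispersion, was 9.11%. Here it measures the scatter of single libraries about the fitted line and not variation between cultures. In simulated data with 13492 genes the slope test recovered 39 of 99 genes changed 2-fold and 90 of 96 changed 4-fold.

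The genes named were the 8 with the largest positive slope and up to 8 with the most negative slope among those called (7 were), the 4 with the highest and 3 with the lowest level per length, MRPL43, those near EGFR or in band 19q13.2, and up to 2 in each direction from each related list. Other genes were named as members of a fixed list or region, or after their values were seen: members of structural regions, neighbours, overlapping genes and back-to-back partners. Reads carry no molecular identifiers, so intervals cover counting error only. p-values measure the scatter of single libraries about a line. Alternatives were other scalings, filters and tests (DESeq2 1.42.0, limma-voom), 2 against 2 libraries, removal of a length trend and leaving out each library.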

Additional observations from a re-analysis of the deposited data

How the results depend on the processing

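No paired analysis was possible because each mixing ratio had 1 library. Of 47 genes called (40 rising, 7 falling), 15 were called when 2 libraries were set against 2. Leaving out 1 library called 32 (without 0:100) to 44 (without 50:50). Library totals called 37, split 21 rising and 16 falling. Over all genes, 23.5% rose and 22.3% fell in the reported fit, and 9.32% and 7.97% with 2 against 2. Without 0:100 these shares were 16.9% and 13.6%, without 50:50 22.4% and 21.8%, and with library totals 13.4% and 37.6%. Of 81 transcripts called, the DESeq2 Wald test called 48, leaving out 1 library 48 to 77, and library totals 73 (42 rising, 31 falling). Of all transcripts tested, 33.6% were called in the reported fit, 19.1% by the Wald test and 37.6% with library totals. Without 0:100, which left 48, the share was 20.1%, and without 50:50, which left 77, it was 33.5%. The isoform usage call numbered 0 with at least 10 reads required in every library and 0 to 1 with 1 library left out. Genes whose pure libraries differed at least 2-fold numbered 17, and 10 with library totals. The log2 ratio of summed levels, 0.55, was 0.13 with library totals and 0.48 without the 3 genes with most reads, MRPS18B, MRPS17 and MRPL52. The related lists pooled 25 assembly factors, 16 translation genes, 13 mitochondrial messenger RNAs, 6 genes acting on mitochondrial DNA and 5 others. They had 35 calls (28 rising, 7 falling), and all 13 mitochondrial messenger RNAs were among the 28. With 2 against 2 libraries they had 10 calls, and with 1 left out 23 (without 0:100) to 34 (without 50:50). Library totals split 34 calls into 14 rising and 20 falling. The shares of all genes in these settings are those given above. The 2 against 2 comparison uses fewer libraries; the cause of the other changes was not tested. Over the 22 named genes, 254 of 286 alternative slopes kept direction and call, 24 lost the call, 4 gained one and 4 changed sign: MRPL19 at 0.23 without the length trend and 0.25 without the 0:100 library (-0.36 to 0.25 with 1 library left out), and MRPS24 at -0.12 with library totals and -0.012 without the length trend. None of the 4 passed the test there or in the reported fit. In simulated data at these library sizes, 39 of 99 genes changed 2-fold were recovered. Far fewer genes were changed there than were called here, so this does not give the power for the genes described.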
